A study of Mus musculus with 8 samples.

Results

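The growth factor genes examined were *Pdgfa*, *Pdgfb*, *Pdgfc*, *Igf1*, *Hbegf*, *Areg*, *Ereg*, *Hgf*, *Vegfb* and *Csf1*, a set of 10 genes taken by symbol from the 55401 genes of a mouse RNA-seq count table. They encode secreted or membrane-anchored factors that hepatic macrophages can pass to hepatic stellate cells and to other neighbours. Of the 10 genes, 9 passed the filter of 0.5 CPM (a gene's counts divided by the total of its library, times 1000000) or more in any library, which left 15202 genes to test. *Areg* did not pass. *Ereg* passed through 1 library, in a group where it was high, and is described on its own, which leaves 8 genes for the counts below.

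Hepatic macrophages were taken with anti-F4/80 antibody and magnetic columns from livers of C57BL/6J background mice, plated on collagen and then kept for 24 h in Veh (vehicle) or in 500 μg/ml CC (cholesterol crystals). Normal livers came from WT mice on a standard diet, and steatotic livers from MC4R-KO mice, which lack the melanocortin 4 receptor, that ate Western diet over 6 to 10 weeks. The 2 liver types and 2 treatments gave 4 groups of 2 libraries each (normal Veh, normal CC, steatotic Veh and steatotic CC). Genotype and diet changed together and cannot be told apart, and the labels do not say whether the 2 libraries of a group came from separate animals, so that p-values measure the spread between libraries, which may be technical. In such bulk libraries, fewer cells of a type and less RNA per cell cannot be told apart.

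Total counts ran from 58668655 to 74529462 per library. Transcripts of *Mc4r*, the targeted gene of MC4R-KO mice, were listed only under the label of the knockout. There were 0 counts in the 4 libraries labelled normal, and 28, 22, 53 and 72 counts in those labelled steatotic. *Spp1*, a gene of lipid-associated macrophages, was at 9.94 to 19.9 CPM in the former and 50.9 to 339.7 CPM in the latter. What reads the disrupted *Mc4r* allele still gives was not tested, and the groups are called by their labels below. Among the 8 macrophage markers, *Adgre1* (F4/80) stood at 814 CPM or more in every library, and the summed markers were lower with CC, at 7710 to 7870 CPM in normal Veh, 6520 to 6570 in normal CC, 8150 to 8210 in steatotic Veh and 6180 to 6370 in steatotic CC. CC lowered 7 of these 8 markers under each label, with *Vsig4*, a marker of resident macrophages, at 335 and 302 against 62.8 and 66.7 CPM and at 569.9 and 605 against 82.1 and 89.5 CPM. The exception, *Cd68*, stood at 3685 and 3494 against 3629 and 3611 CPM with the label normal (adjusted p = 0.478) and rose with CC under the label steatotic, from 2075 and 2076 to 2362 and 2250 CPM (log2 0.17, adjusted p = 0.0147). Hepatocyte markers (8 genes) summed to 48.6 to 58.9 CPM with the label normal and 1.67 to 2.42 CPM with the label steatotic. Endothelial markers (8 genes) summed to 152 to 186 CPM and 271 to 343 CPM with these labels. The megakaryocyte or platelet list (6 genes) summed to 11.9 to 15.1 and 68.4 to 81.3 CPM, nearly all from *Pf4*, while the lineage markers *Itga2b* and *Gp9* were at or below 0.290 CPM. The stellate or fibroblast list (12 genes) summed to 5.89 to 6.30 CPM in normal Veh, 9.94 to 11.8 in normal CC, 20.2 to 23.9 in steatotic Veh and 111 to 139 in steatotic CC. Most of this sum in the steatotic groups was *Dcn*, whereas *Ngfr* was at 0 in all 8 libraries and *Pdgfrb* did not exceed 0.425 CPM. T or NK cell markers (8 genes) summed to 0.801 to 1.39 and 13.2 to 18.2 CPM with the 2 labels, and the cholangiocyte list (5 genes) summed to 17.8 to 69.0 CPM in 3 groups and 327 to 353 CPM in steatotic CC, mostly from *Spp1*. Mast cell, basophil and ILC2 markers, from cells known to make amphiregulin, summed to at most 0.747 CPM.

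Stellate cells are the vitamin A-storing pericytes of the liver sinusoid, which in injury divide, turn into myofibroblasts and lay down collagen. Platelet-derived growth factor (PDGF) is their best known mitogen: A and B chains are cut by furin-type proteases and secreted ready to bind, while the C chain leaves the cell latent and needs removal of its CUB domain by plasmin or tissue plasminogen activator. Ligands of the epidermal growth factor receptor (EGFR), such as HB-EGF, amphiregulin and epiregulin, are made as membrane proteins and are shed chiefly by ADAM17. Insulin-like growth factor 1 acts in a balance with its binding proteins, hepatocyte growth factor (HGF) is secreted as a single chain that urokinase or HGF activator cleaves, VEGF-B binds FLT1 and neuropilin 1, and CSF-1 keeps macrophages themselves alive.

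Adding CC changed 5 of the 8 genes past the threshold with the label normal and 7 of 8 with the label steatotic (edgeR quasi-likelihood test, Benjamini-Hochberg adjusted over all 15202 genes). The count with the label normal was 3 without normal Veh replicate 2, normal CC replicate 1 or normal CC replicate 2, when *Pdgfa* and *Hgf* were not called. With the label normal, *Pdgfa*, *Pdgfb* and *Hbegf* rose, against 6.27% of all tested genes called higher, and *Pdgfc* and *Hgf* fell, against 5.54% called lower. With the label steatotic the same 3 genes rose together with *Igf1* and *Vegfb*, against 12.0% of all tested genes, and the same 2 genes fell, against 10.9%. Median log2 changes over the 8 genes were 0.18 and 0.43, beside a median of 0.00 over all tested genes in both comparisons. Both comparisons have Veh libraries of their own. The test of the difference between the 2 responses called 1 of the 8 genes higher with the label steatotic, *Igf1*, against 1.95% of all tested genes. It called 0 lower, against 1.27%, where edgeR at an unadjusted p under 0.05 gave 4 genes higher and 2 lower, against 7.94% and 6.26% of all tested genes. DESeq2 called 1 higher and 0 lower, against 2.83% and 2.02%.

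**Figure D1:**
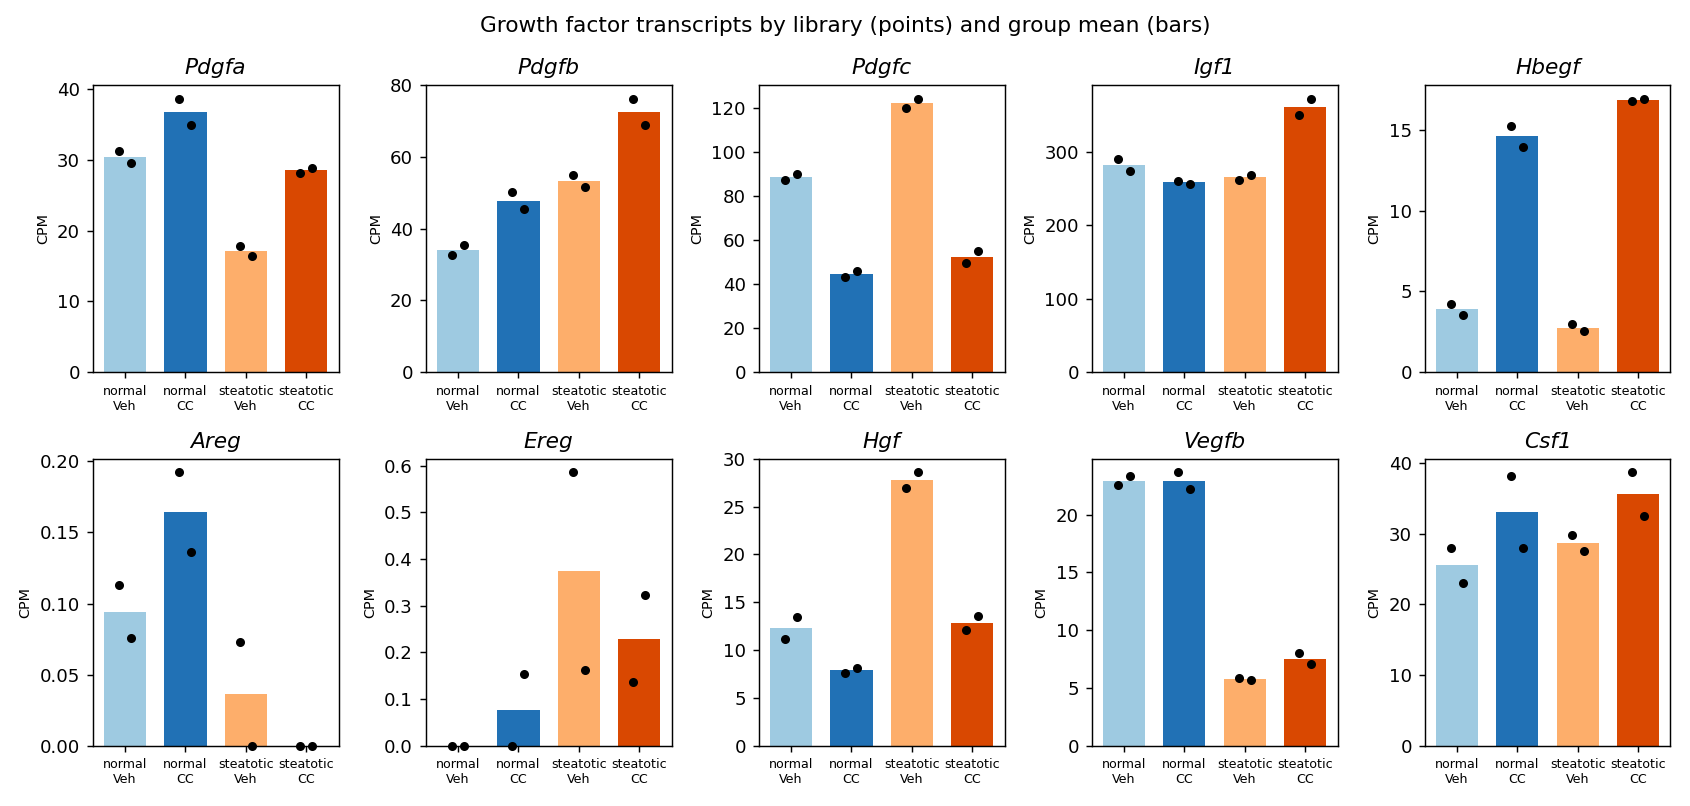
Level of each of the 10 growth factor transcripts in CPM (vertical axis from 0, a scale of its own in each panel) in the 4 groups (horizontal axis); points are the 2 libraries of a group and bars their mean. Pdgfc and Hgf drop with CC under both labels, Hbegf climbs from below 4.3 to above 13.9 CPM, and Vegfb separates by label with 22.2 CPM or more against 8.1 or less.

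*Pdgfb* (chromosome 15, 79995874 to 80014977, minus strand, GRCm38), which encodes the B chain, was measured at 32.6 and 35.3 CPM in the normal Veh libraries, 50.1 and 45.3 in normal CC, 54.9 and 51.7 in steatotic Veh, and 76.2 and 68.7 in steatotic CC. The 4 groups did not overlap and rose in that order. CC raised *Pdgfb* by 0.53 on the log2 scale (SE 0.0813, 1.44-fold, adjusted p = 0.00577 by edgeR) with the label normal and by 0.46 (SE 0.0807, 1.38-fold, adjusted p = 0.00515) with the label steatotic. These 2 responses differed by −0.07 (95% interval −0.33 to 0.20, adjusted p = 0.864), so that the interval allows a difference of either sign. The levels with the label steatotic exceeded those with the label normal by 0.70 with Veh (SE 0.0813, adjusted p = 0.00051) and by 0.63 with CC (SE 0.0810, adjusted p = 0.00099). Of the 6 megakaryocyte or platelet genes, *Pf4* alone passed the filter and was higher under that label with Veh (log2 2.59, adjusted p = 1.01e-06). *Ppbp* stood at 0 and 0.0604 against 0.176 and 0.326 CPM, while *Itga2b*, at 0.156 and 0.211 against 0.0439 and 0 CPM, and *Gp5*, at 0.128 and 0.0755 against 0.0586 and 0 CPM, lay the other way, and *Gp9* and *Gp1bb* did not exceed 0.0567 CPM in these 4 libraries. Endothelial cells also make *Pdgfb*. Of the 7 tested endothelial markers, 5 were higher with the label steatotic under Veh, against 16.4% of all tested genes. These 5 ranged from *Cdh5* (1.21-fold, adjusted p = 0.0144) to *Dnase1l3* (16.5-fold, adjusted p = 3.96e-07), with *Kdr* (2.99-fold, adjusted p = 3.72e-05) and *Pecam1* (3.77-fold, adjusted p = 4.69e-06) between. *Stab2* was lower (log2 −0.33, adjusted p = 0.013) and *Oit3* did not pass. Endothelial sums were 152 to 157 against 335 to 343 CPM. With CC these sums were 180 to 186 CPM with the label normal and 271 to 279 CPM with the label steatotic. The sums of CC libraries were thus above those of Veh libraries in the former and below them in the latter. Single markers went both ways. Under the label steatotic *Pecam1* and *Dnase1l3* fell with CC, *Stab2*, *Kdr*, *Cdh5* and *Oit3* rose, and *Lyve1* did not pass. Under the label normal *Cdh5* and *Oit3* rose and *Dnase1l3* fell. The part of these cells in the *Pdgfb* values was not tested.

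*Pdgfa* (chromosome 5, 138976014 to 138997370, minus strand), encoding the A chain, showed 31.3 and 29.5 CPM in normal Veh, 38.7 and 35.0 in normal CC, 17.9 and 16.4 in steatotic Veh, and 28.2 and 28.9 in steatotic CC. Its order differed from that of *Pdgfb*: the steatotic Veh libraries were lowest, and the steatotic CC libraries stayed just under the normal Veh libraries. Under the label steatotic *Pdgfa* rose 1.69-fold with CC (log2 0.75, SE 0.0817, adjusted p = 0.000475). The rise with the label normal was 1.24-fold (log2 0.31, SE 0.0810, adjusted p = 0.0466) and missed the threshold without any 1 of the 8 libraries (adjusted p from 0.0540 to 0.214). The difference between the responses was 0.44 (95% interval 0.17 to 0.71, adjusted p = 0.106). With the label steatotic *Pdgfa* was lower by 0.78 on the log2 scale with Veh (adjusted p = 0.000294) and by 0.34 with CC (adjusted p = 0.0167), the latter past the threshold in neither the fit without normal CC replicate 1 nor those without steatotic CC replicate 1 or 2 (adjusted p = 0.0957, 0.0769 and 0.0591). The antisense gene *6330403L08Rik* overlaps *Pdgfa*. The library kit keeps strand, but the strand setting of the counting is not given in the sources used here. That gene held 16.1 and 16.6, 19.3 and 18.1, 4.39 and 6.03, and 8.31 and 9.69 CPM in the same order of groups. It was lower with the label steatotic by 1.60 under Veh (adjusted p = 0.000216) and by 1.03 under CC (adjusted p = 0.00215). With CC it rose under the label steatotic (log2 0.80, adjusted p = 0.00856) and did not pass with the label normal (log2 0.23, adjusted p = 0.403). Whether the counting told reads of the 2 genes apart was not tested.

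*Pdgfc* (chromosome 3, 81036416 to 81214040, plus strand) responded to CC in the other direction. It stood at 87.0 and 90.0 CPM in normal Veh, 43.2 and 45.8 in normal CC, 120 and 124 in steatotic Veh, and 49.8 and 55.1 in steatotic CC. All 4 CC libraries lay below all 4 Veh libraries. The fall was 0.516-fold of the Veh level with the label normal (log2 −0.95, SE 0.0619, adjusted p = 0.00011) and 0.435-fold with the label steatotic (log2 −1.20, SE 0.0620, adjusted p = 1.25e-05). The responses differed by −0.25 (95% interval −0.45 to −0.04, adjusted p = 0.24). CC also lowered 7 of the 8 macrophage markers under both labels, while *Cd68* was not called with the label normal (log2 0.05, adjusted p = 0.478) and rose with the label steatotic (log2 0.17, adjusted p = 0.0147). The part of these markers in the *Pdgfc* fall was not tested. *Pdgfc* was higher with the label steatotic by 0.51 with Veh (SE 0.0612, adjusted p = 6e-04) and by 0.26 with CC (SE 0.0616, adjusted p = 0.0164), where the call with CC was lost without normal CC replicate 1 or steatotic CC replicate 2 (adjusted p = 0.0960 and 0.0829).

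Per kilobase of exon, which allows genes to be set beside each other, the 3 PDGF transcripts summed to 34.9 and 35.6 CPM per kb in normal Veh, 32.9 and 31.1 in normal CC, 42.4 and 42.1 in steatotic Veh, and 37.1 and 36.6 in steatotic CC. *Pdgfc* made up 48.9% and 49.6% of this sum in normal Veh and 55.4% and 58.0% in steatotic Veh, and 25.8% to 29.6% in the 4 CC libraries. *Pdgfb* took 22.4% and 23.8% in normal Veh, 36.5% and 35.0% in normal CC, 31.1% and 29.5% in steatotic Veh, and 49.3% and 45.1% in steatotic CC. In CC libraries *Pdgfb* was thus the largest of the 3 under the label steatotic, while *Pdgfa* (37.7% and 36.1%) and *Pdgfb* lay close together under the label normal. These shares are a description and carry no test.

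**Figure D2:**
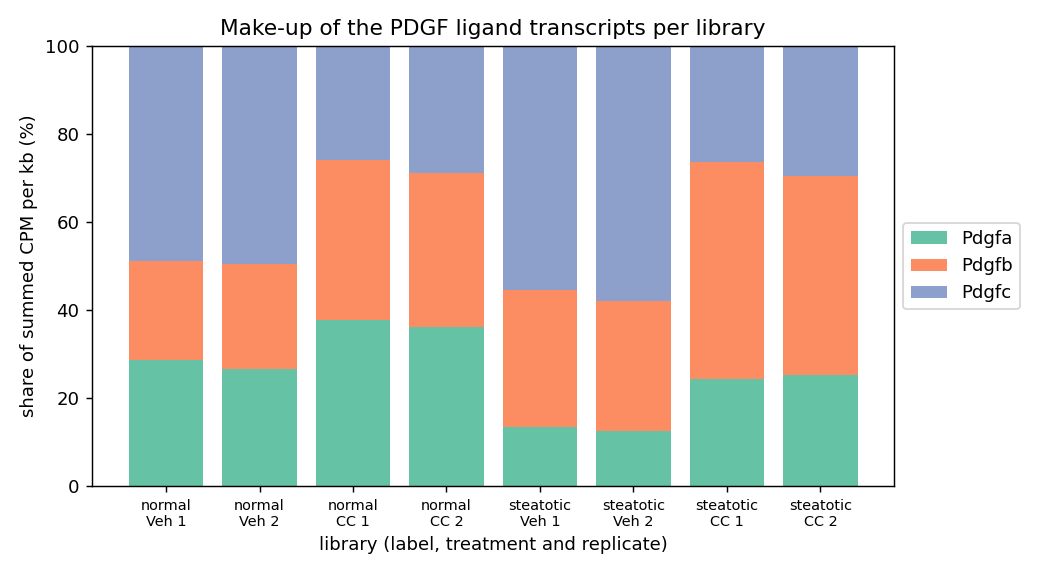
Share of Pdgfa, Pdgfb and Pdgfc in their summed CPM per kilobase (vertical axis, percent) in each of the 8 libraries (horizontal axis). The Pdgfc share falls from 48.9% or more in the 4 Veh libraries to 29.6% or less in the 4 CC libraries.

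Sequence just upstream of the annotated starts is shown for *Pdgfa*, which rose with CC, and *Pdgfc*, which fell, as 2 PDGF genes with CC responses of opposite sign. Both run 5′ to 3′ on the strand of the gene, cover the 250 bases before a RefSeq start site (GRCm38.p6), and come from chr5:138994945-138995194 (minus strand) and chr3:81036166-81036415 (plus strand). The *Pdgfa* stretch holds 72.4% G and C and the *Pdgfc* stretch 50.8%. Neither holds capitals, which mark a searched motif, since neither had a match.
Pdgfa: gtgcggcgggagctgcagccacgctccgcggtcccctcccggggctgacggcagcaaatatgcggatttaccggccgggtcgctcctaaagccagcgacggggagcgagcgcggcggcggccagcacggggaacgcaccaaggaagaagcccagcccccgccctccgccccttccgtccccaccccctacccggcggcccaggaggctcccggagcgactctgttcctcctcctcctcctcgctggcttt
Pdgfc: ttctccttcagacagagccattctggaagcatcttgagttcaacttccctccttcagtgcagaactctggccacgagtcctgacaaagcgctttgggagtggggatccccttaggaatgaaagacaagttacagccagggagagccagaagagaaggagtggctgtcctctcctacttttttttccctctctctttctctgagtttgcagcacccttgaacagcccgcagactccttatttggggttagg

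*Hbegf* was the growth factor with the largest response to CC among the 8 genes above the filter in more than 1 library. This gene for heparin-binding EGF-like growth factor, an EGFR and ERBB4 ligand, gave 4.23 and 3.52 CPM in normal Veh, 15.3 and 13.9 in normal CC, 2.96 and 2.51 in steatotic Veh, and 16.8 and 16.9 in steatotic CC. All CC libraries were above all Veh libraries, and the highest level came with CC under the label steatotic although its Veh libraries were the lowest. The rise was 3.86-fold with the label normal (log2 1.95, SE 0.137, adjusted p = 0.000154) and 6.24-fold with the label steatotic (log2 2.64, SE 0.141, adjusted p = 1.48e-05). Between the labels the responses differed by 0.69 (SE 0.190, 95% interval 0.25 to 1.14), which did not pass the test over all genes (adjusted p = 0.12). With Veh, *Hbegf* was 0.728-fold in the label steatotic relative to the label normal (adjusted p = 0.040). That call was lost without normal Veh replicate 1, steatotic Veh replicate 2 or any 1 of the CC libraries (adjusted p from 0.0566 to 0.194). With CC the difference was 0.24 (95% interval −0.07 to 0.54, adjusted p = 0.231).

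The other EGFR ligands of the set were near the limit of detection. *Areg* (chromosome 5, 91139599 to 91148432, plus strand), which encodes amphiregulin, was listed at 0.113 and 0.0755 CPM in normal Veh, 0.192 and 0.136 in normal CC, 0.0732 and 0 in steatotic Veh, and 0 and 0 in steatotic CC. The limit set by 3 counts was 0.0403 to 0.0511 CPM per library, which the 4 normal libraries and 1 steatotic library exceeded. Of values from 1 to 20, 35.0% to 36.5% were multiples of 4, against 23.9% to 27.0% of values from 100 to 1000. If 1 fragment stood for 4 counts, which was not tested, 3 fragments would amount to 0.161 to 0.205 CPM, a range that 7 of the 8 *Areg* levels did not reach. *Areg* was not tested for a difference. *Ereg* (chromosome 5, 91074622 to 91093646, plus strand), which encodes epiregulin, had counts of 0 and 0 in normal Veh, 0 and 9 in normal CC, 40 and 12 in steatotic Veh, and 9 and 24 in steatotic CC. Steatotic Veh replicate 1, at 0.586 CPM, was the library through which it passed the filter. Steatotic Veh replicate 2, at 0.163 CPM, would be at that limit of 3 fragments. The edgeR call for this comparison (adjusted p = 0.0499) was lost without either normal Veh library, either steatotic Veh library or either steatotic CC library (adjusted p from 0.0582 to 0.174). *Tgfa*, another EGFR ligand, ranged from 2.68 to 3.51 CPM over the 8 libraries and passed the test in none of the 5 comparisons.

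*Igf1* (chromosome 10, 87858265 to 87937042, plus strand) was the most abundant of the 10 genes, per library and per kilobase. It read 290.4 and 274 CPM in normal Veh, 260.4 and 256 in normal CC, 262 and 269 in steatotic Veh, and 349.7 and 372 in steatotic CC. The steatotic CC libraries stood above the other 6, which spanned 256 to 290.4 CPM. CC raised *Igf1* 1.38-fold with the label steatotic (log2 0.46, SE 0.0454, adjusted p = 0.000292). With the label normal the difference was −0.09 (SE 0.0453, 95% interval −0.20 to 0.01, adjusted p = 0.264). The 2 responses differed by 0.55 (SE 0.0641, 95% interval 0.40 to 0.70, adjusted p = 0.00573), and over 19 alternative fits this difference lay between 0.51 and 0.60 with adjusted p from 8.47e-07 to 0.0273. With Veh the labels differed by −0.04 (95% interval −0.15 to 0.06, adjusted p = 0.512), and with CC by 0.51 (SE 0.0454, adjusted p = 0.000155). Stellate cells and hepatocytes also make *Igf1*. Hepatocyte markers summed to 1.67 to 2.18 CPM in steatotic Veh and 2.39 to 2.42 CPM in steatotic CC, and *Dcn* stood at 20.8 and 17.4 against 135 and 108 CPM. Of the 12 stellate or fibroblast markers, 3 passed the filter, and *Dcn* was the 1 called. *Acta2* stood at 0.834 and 1.05 against 1.51 and 1.36 CPM (1.54-fold, adjusted p = 0.149) and *Rgs5* at 1.48 and 0.965 against 1.07 and 1.15 CPM. Below the filter and not tested, *Pdgfrb* stood at 0.117 and 0.0680 against 0.381 and 0.322 CPM, and the other 8 were at or below 0.395 CPM. The part of other cells was not tested.

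**Figure D3:**
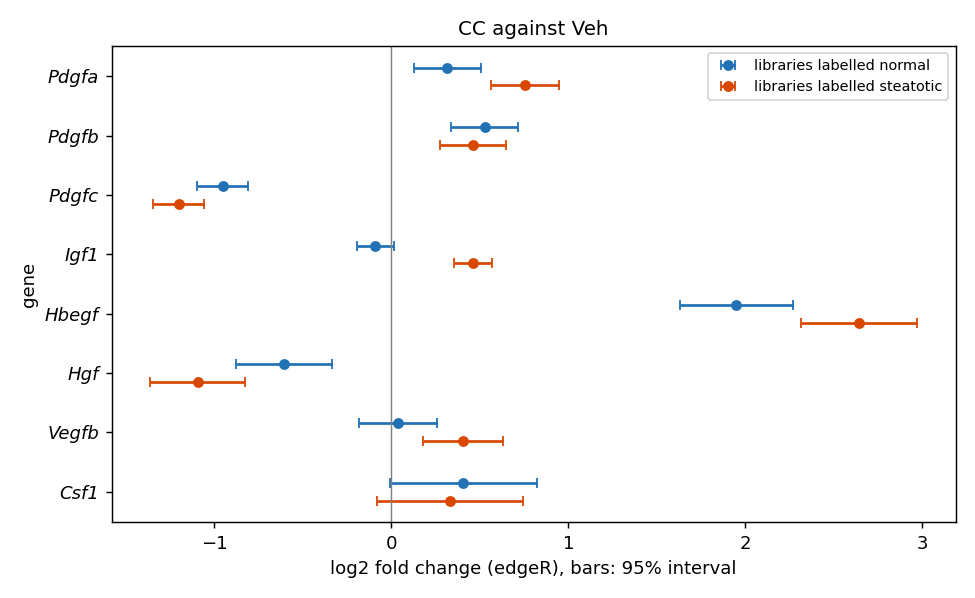
Log2 fold change of CC against Veh (horizontal axis, edgeR, with 95% intervals) for 8 growth factor genes (vertical axis), in blue for the label normal and in orange for the label steatotic. Intervals of the 2 labels lie apart for Igf1, at −0.09 and 0.46, and also for Hbegf and Pdgfa, whose differences of 0.69 and 0.44 did not pass the test over all genes.

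*Hgf* (chromosome 5, 16553495 to 16620152, plus strand), whose product is the ligand of MET and a mitogen of hepatocytes, fell with CC. It was found at 11.2 and 13.4 CPM in normal Veh, 7.61 and 8.13 in normal CC, 27.0 and 28.6 in steatotic Veh, and 12.1 and 13.6 in steatotic CC. CC libraries lay below the Veh libraries of the same label, and the steatotic CC libraries overlapped the normal Veh libraries. The CC level was 0.657-fold of Veh with the label normal (log2 −0.61, SE 0.116, adjusted p = 0.0147). This call was lost without normal Veh replicate 2, normal CC replicate 1 or normal CC replicate 2 (adjusted p = 0.0699, 0.0902 and 0.0538). With the label steatotic it was 0.468-fold (log2 −1.10, SE 0.115, adjusted p = 0.000401), and the difference between responses was −0.49 (95% interval −0.87 to −0.11, adjusted p = 0.209). *Hgf* was 2.33-fold higher with the label steatotic under Veh (log2 1.22, SE 0.115, adjusted p = 0.000169) and 1.66-fold higher under CC (log2 0.73, SE 0.116, adjusted p = 0.00278). Endothelial and stellate cells are further sources of *Hgf* in liver, and *Dcn* was 9.35-fold higher by label with Veh (adjusted p = 1.66e-05), while *Acta2* and *Rgs5*, the other stellate markers past the filter, did not pass. By label with Veh, 5 of the 7 tested endothelial markers were higher, against 16.4% of all tested genes, with sums of 152 to 157 against 335 to 343 CPM. There *Stab2* was lower (log2 −0.33, adjusted p = 0.013) and *Oit3* did not pass. With CC under the label steatotic, *Pecam1* (96.1 and 94.3 against 35.5 and 40.7 CPM) and *Dnase1l3* (92.0 and 88.2 against 38.6 and 42.8 CPM) fell, *Stab2*, *Kdr*, *Cdh5* and *Oit3* rose, and *Lyve1* did not pass. *Dcn* rose 6.44-fold in that comparison (adjusted p = 3.63e-05). Of the 8 macrophage markers, 7 fell there, in the direction of *Hgf*, and *Cd68* rose (log2 0.17, adjusted p = 0.0147). The part of these lists was not tested.

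*Vegfb* (chromosome 19, 6982473 to 6987651, minus strand) differed by label more than any other of the 8 genes. Its level was 22.5 and 23.3 CPM in normal Veh, 23.7 and 22.2 in normal CC, 5.83 and 5.70 in steatotic Veh, and 8.05 and 7.04 in steatotic CC. No steatotic library reached the level of a normal library. With Veh the label steatotic was at 0.259-fold of the label normal (log2 −1.95, SE 0.0984, adjusted p = 7.42e-06), and with CC at 0.335-fold (log2 −1.58, SE 0.0971, adjusted p = 2.17e-05). Between CC and Veh *Vegfb* differed by 0.04 with the label normal (95% interval −0.18 to 0.26, adjusted p = 0.862). CC raised it by 0.41 with the label steatotic (SE 0.0969, adjusted p = 0.0205), a call lost without steatotic Veh replicate 1 or 2 or steatotic CC replicate 1 (adjusted p = 0.0741, 0.0923 and 0.103). The difference between the responses was 0.37 (95% interval 0.05 to 0.68, adjusted p = 0.262). The hepatocyte marker *Alb* was lower with the label steatotic under Veh, in the direction of *Vegfb*. It stood at 49.4 and 48.1 against 1.92 and 1.24 CPM (log2 −4.91, adjusted p = 1.19e-05). The other tested hepatocyte markers passed the filter only through libraries labelled normal, so a count of them called lower would follow from the filter and is not given. The part of hepatocytes was not tested.

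The stretches before the starts of *Hgf*, the gene that fell beside *Pdgfc*, and of *Vegfb*, the gene that separated the labels, are given from chr5:16553245-16553494 (plus strand) and chr19:6987652-6987901 (minus strand), again 250 bases each from RefSeq on GRCm38.p6. Motifs were sought on both strands in windows of 300 bases around start sites (250 before and 50 after), of which 9 windows belonged to 7 of the 10 genes. *Pdgfb*, *Hbegf* and *Ereg* had no window. The letters searched were GCGNGGGCG for EGR1, TGACTCA for AP-1, TCACGTGA for the CLEAR element and TGACGTCA for the cyclic AMP response element, which occur in 5.55%, 5.20%, 0.974% and 1.79% of all 32851 windows. There were 2 matches. *Vegfb* held an EGR1 match that begins 120 bases before its start and is read as CGCCCCCGC on the strand of the gene, shown in capitals below. *Areg* held the cyclic AMP element TGACGTCA 61 bases before its start. A match of letters is a description and does not show that a factor binds there.
Hgf: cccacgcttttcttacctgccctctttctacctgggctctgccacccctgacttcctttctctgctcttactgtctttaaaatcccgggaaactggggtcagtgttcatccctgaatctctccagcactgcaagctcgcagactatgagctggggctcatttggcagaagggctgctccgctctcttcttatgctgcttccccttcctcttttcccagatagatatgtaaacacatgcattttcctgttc
Vegfb: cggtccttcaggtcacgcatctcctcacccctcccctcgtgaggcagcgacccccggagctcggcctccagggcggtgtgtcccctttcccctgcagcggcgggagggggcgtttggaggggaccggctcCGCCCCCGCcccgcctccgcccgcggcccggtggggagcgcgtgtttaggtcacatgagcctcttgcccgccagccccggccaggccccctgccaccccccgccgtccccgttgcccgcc

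*Csf1* (chromosome 3, 107741048 to 107760469, minus strand), the ligand of the macrophage receptor CSF1R, showed the widest spread relative to its mean between libraries of a group (33.0 ± 7.19 CPM in normal CC, mean ± SD, n = 2) among the genes above 1 CPM in every library. It was read at 28.0 and 23.1 CPM in normal Veh, 38.1 and 28.0 in normal CC, 29.8 and 27.6 in steatotic Veh, and 38.7 and 32.6 in steatotic CC. The groups overlapped except that the steatotic CC libraries lay above all Veh libraries. Differences between CC and Veh were 0.41 (95% interval −0.01 to 0.82, adjusted p = 0.206) with the label normal and 0.33 (95% interval −0.08 to 0.74, adjusted p = 0.244) with the label steatotic. Both intervals hold 0 and also a rise as large as that of *Pdgfb*, so neither presence nor absence of a rise is shown. The labels differed by 0.21 with Veh (adjusted p = 0.409) and 0.14 with CC (adjusted p = 0.622).

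Set label against label with Veh, 3 of the 8 genes were higher with the label steatotic (*Pdgfb*, *Pdgfc* and *Hgf*), against 16.4% of all tested genes, and 3 were lower (*Pdgfa*, *Hbegf* and *Vegfb*), against 14.3%. With CC, 4 were higher (*Pdgfb*, *Pdgfc*, *Igf1* and *Hgf*), against 15.9%, and 2 were lower (*Pdgfa* and *Vegfb*), against 12.9%. Of these calls with CC, those of *Pdgfa* and *Pdgfc* depended on single libraries, as given above. The median over the 8 genes was 0.08 with Veh and 0.25 with CC, beside −0.01 and 0.00 over all tested genes. *Pdgfb*, *Pdgfc*, *Hgf*, *Pdgfa* and *Vegfb* were called in the same direction in both comparisons, which contrast separate libraries.

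**Figure D4:**
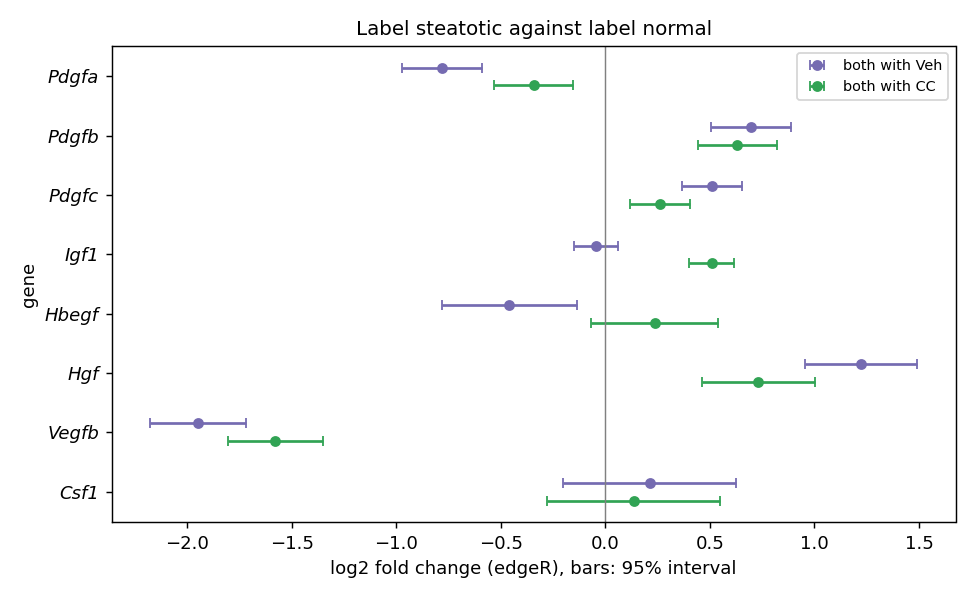
Log2 fold change of the label steatotic against the label normal (horizontal axis, edgeR, with 95% intervals) for 8 growth factor genes (vertical axis), in purple with Veh and in green with CC. Vegfb lies lowest in both, at −1.95 and −1.58, and Igf1 lies at −0.04 with Veh and at 0.51 with CC.

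Receptors for these ligands were read in the same libraries. The PDGF receptors were near the limit of detection, with *Pdgfra* at 0.142 to 0.833 CPM and *Pdgfrb* at 0 to 0.425 CPM. *Egfr* stood at 0.699 to 1.06 CPM with the label normal and 2.23 to 5.34 CPM with the label steatotic, higher by 1.47 with Veh (adjusted p = 0.0215) and 2.50 with CC (adjusted p = 0.00262), and *Erbb4* did not exceed 0.0939 CPM. *Igf1r* ranged from 1.96 to 5.85 CPM and was lower with the label steatotic under CC (log2 −0.95, adjusted p = 0.0421). *Flt1*, the main receptor of VEGF-B, ranged from 3.57 to 8.86 CPM and was higher there (log2 0.83, adjusted p = 0.0199). *Nrp1*, a co-receptor of VEGF-B, rose with CC under the label normal (log2 0.33, adjusted p = 0.0114) and fell under the label steatotic (log2 −0.40, adjusted p = 0.00238), and the responses differed by −0.73 (adjusted p = 0.00573). *Csf1r* was abundant at 1071 to 1693 CPM and fell with CC under both labels (log2 −0.46 and −0.50, adjusted p = 0.00495 and 0.00158). Between CC and Veh, *Met*, the receptor of HGF, moved opposite to its ligand. It gave 83.2 and 85.2 CPM in normal Veh, 177 and 165 in normal CC, 90.8 and 88.8 in steatotic Veh, and 260.3 and 264 in steatotic CC. The rise of *Met* with CC was 2.08-fold and 2.95-fold (adjusted p = 3.03e-05 and 2.03e-06), larger with the label steatotic by 0.50 (adjusted p = 0.00824). By label under CC, *Met* and *Hgf* were both higher with the label steatotic (log2 0.64 and 0.73, adjusted p = 5.21e-05 and 0.00278). *Insr*, the insulin receptor, fell with CC under the label steatotic (log2 −1.21, adjusted p = 0.033), where its Veh libraries were far apart at 20.8 and 38.3 CPM. Among the 14 tested receptors of 17 listed, CC raised 3 (*Met*, *Nrp1* and *Nrp2*) and lowered 1 (*Csf1r*) with the label normal, and raised 3 (*Met*, *Nrp2* and *Kdr*) and lowered 3 (*Csf1r*, *Nrp1* and *Insr*) with the label steatotic, with medians of 0.12 and −0.03. Of all tested genes, CC raised 6.27% and lowered 5.54% with the label normal and raised 12.0% and lowered 10.9% with the label steatotic.

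Of the genes that release, activate or bind the ligands, most did not pass the test with CC. *Cd9*, a tetraspanin that associates with the HB-EGF precursor, stood at 59.7 and 57.4 CPM in normal Veh, 124 and 116 in normal CC, 49.7 and 49.9 in steatotic Veh, and 192 and 169 in steatotic CC. It rose 2.11-fold and 3.67-fold (adjusted p = 0.000109 and 3.16e-06), and the responses differed by 0.80 (adjusted p = 0.00618). *Plau*, which encodes urokinase, went from 319 and 319 CPM to 580 and 559.7 with the label normal and from 207 and 194 to 550.3 and 505 with the label steatotic. This rise was 1.83-fold and 2.66-fold (adjusted p = 9.41e-05 and 3.22e-06) and differed by 0.54 (adjusted p = 0.0109). *Adam17*, the main sheddase of HB-EGF, ranged from 229 to 264 CPM and differed by −0.04 and −0.07 between CC and Veh (adjusted p = 0.78 and 0.51). *Adam10* fell with CC under both labels (log2 −0.42 and −0.40, adjusted p = 0.00149 and 0.000862). *Adam9* fell with CC under the label steatotic (log2 −0.82, adjusted p = 0.00515) and was not called with the label normal (log2 −0.30, adjusted p = 0.192). With Veh, *Adam9* was 1.86-fold higher with the label steatotic (adjusted p = 0.00286). *Plat*, for tissue plasminogen activator, was below 2 CPM in every library and higher with the label steatotic under Veh (log2 1.53, adjusted p = 0.0154) and CC (log2 1.15, adjusted p = 0.0448). *Rhbdf1*, which helps ADAM17 mature, was lower with the label steatotic under Veh (log2 −1.25, adjusted p = 0.0131), at 2.39 and 4.02 against 1.42 and 1.20 CPM. The related gene *Rhbdf2* stood at 106.5 to 133.3 CPM and did not pass in that comparison (log2 0.09, adjusted p = 0.135). With CC *Rhbdf2* rose under both labels (log2 0.28 and 0.26, adjusted p = 0.00383 and 0.00261). *Spint1*, an inhibitor of HGF activator, was higher with the label steatotic under CC (log2 1.83, adjusted p = 0.0034) at up to 2.09 CPM. Of 13 tested genes of this list, CC called 3 higher and 1 lower with the label normal and 3 higher and 2 lower with the label steatotic, with medians of −0.04 and 0.26, beside the same 6.27%, 5.54%, 12.0% and 10.9% of all tested genes. Of 4 tested IGF binding genes, 1 passed a test with CC, *Igfbp4*, which fell under the label steatotic (log2 −1.45, adjusted p = 0.0277) from 1.90 and 2.46 to 0.488 and 1.09 CPM.

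Other ligands of the same families were tested for 10 of 18 listed genes. CC raised 2 of them with the label normal, *Vegfa* and *Pgf*, and 4 with the label steatotic, these 2 and *Nrg4* and *Csf3*, with medians of 0.23 and 0.44, against 6.27% and 12.0% of all tested genes called higher. *Pgf*, placental growth factor and like VEGF-B a ligand of FLT1, read 8.43 and 9.02 CPM in normal Veh, 31.6 and 29.1 in normal CC, 7.82 and 7.19 in steatotic Veh, and 11.7 and 10.2 in steatotic CC. Its rise was larger with the label normal (3.57-fold against 1.47-fold, adjusted p = 8.61e-05 and 0.00778), and the responses differed by −1.28 (adjusted p = 0.00576). *Vegfa*, the main angiogenic factor of the family, rose 2.84-fold and 3.35-fold with CC (adjusted p = 0.000208 and 2.67e-05). By label *Vegfa* went the other way from *Vegfb*: 2.30 and 2.02 CPM in normal Veh stood against 11.7 and 10.8 in steatotic Veh (log2 2.42, adjusted p = 5.35e-06). *Nrg4*, an ERBB4 ligand, rose 2.67-fold with CC under the label steatotic (adjusted p = 0.00178). *Csf3*, the granulocyte factor, rose 2.72-fold there (adjusted p = 0.00773), with libraries of 5.93 and 3.38 CPM. *Nrg1* was higher with the label steatotic (log2 2.51 with Veh, adjusted p = 0.00449), and *Vegfc* was higher with that label under CC (log2 2.64, adjusted p = 0.0251), both at means below 3 CPM. *Kdr*, the main VEGF-A receptor and also an endothelial marker, was higher with the label steatotic under Veh (log2 1.58, adjusted p = 3.72e-05).

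**Figure D5:**
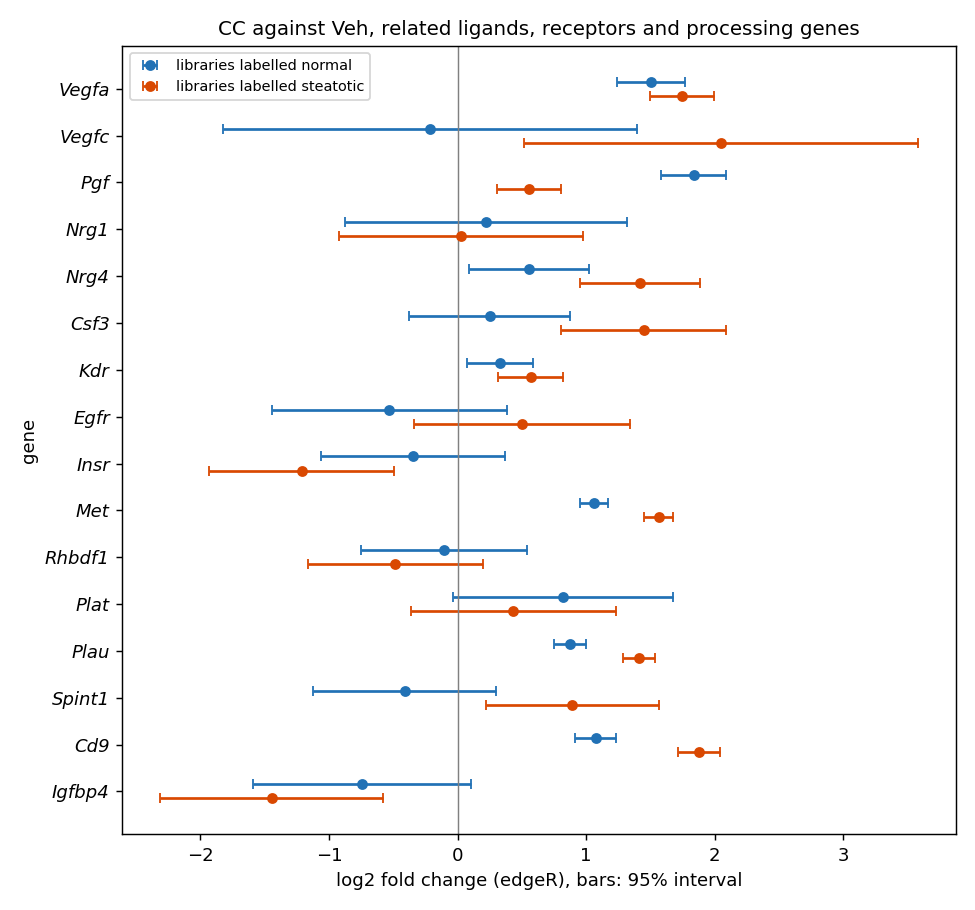
Log2 fold change of CC against Veh (horizontal axis, edgeR, with 95% intervals) for 16 related ligand, receptor, processing and binding genes (vertical axis), in blue for the label normal and in orange for the label steatotic. Met, Plau and Cd9 rise more with the label steatotic and Pgf more with the label normal.

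The profile of each gene over the 8 libraries was set beside 9014 other expressed genes by Pearson's r of log2 CPM, as a description over 8 points that share 4 group means. *Pdgfb* was most like *Socs3* (r = 0.992), a feedback inhibitor of cytokine signalling, and *Bcl2a1d* (0.990). *Pdgfa* was most like *Tmpo* (0.995) and *Slc22a4* (0.994). *Pdgfc* was closest to *Glb1* (0.998), the lysosomal beta-galactosidase, and *Zcchc24* (0.997), and *Hgf* to *Atrx* (0.998) and *Jak3* (0.996). *Hbegf* ran with *Ptpre* (0.997) and *Arrdc4* (0.996), and *Vegfb* with *Pld3* (0.997) and *Rras2* (0.997). *Igf1* had less close neighbours, *Sbf1* (0.965) and *Mvp* (0.961), as did *Csf1*, with *Acap2* (0.954) and *Ccnt1* (0.937). For *Ereg* the closest were *H2-K1* (0.980) and *Ccdc66* (0.937), at counts too low to rank.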

How the data were processed

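Poly(A) RNA of cultured F4/80-selected hepatic macrophages was sequenced in 8 libraries, 2 per group. Paired-end reads of 150 bp passed through fastp for trimming, HISAT2 for alignment (mm10) and StringTie for quantification. The values deposited by the authors are estimated counts (expected counts) per gene, whole numbers without normalization. Versions and the strand setting of the counting are not given in the sources used here. CPM are counts divided by the library total. Genes that reached 0.5 CPM in 1 or more libraries were fitted with edgeR 4.0.16 (R 4.3.3) as 4 group means over the 8 libraries, with TMM factors (0.981 to 1.03), robust quasi-likelihood tests and Benjamini-Hochberg adjustment over all 15202 genes at a threshold of 0.05. Intervals of 95% are per gene. With 2 libraries against 2, an exact permutation test of a single gene cannot reach 0.05, so none is given. Pearson's r between the libraries of a group was 0.979 to 0.982. DESeq2 1.42.0, other filters and scalings, counts divided by 4, a replicate block and leaving out each library were alternatives. Related genes were named where the adjusted p was under 0.05 with an absolute log2 change over 1 in a comparison and the mean was at least 1 CPM, with the receptors of the 10 ligands given as well. *Tgfa*, *Adam17*, *Adam9*, *Adam10* and *Rhbdf2* were named beside these. All genes and lists were chosen with earlier results of these data known. Exon lengths and positions come from an annotation of GRCm38, the assembly of mm10.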

Additional observations from a re-analysis of the deposited data

Results flagged for a closer look

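The response of *Igf1* to CC differed between the labels by 0.553 on the log2 scale (steatotic minus normal, adjusted p = 0.00573 by edgeR), from a test of the difference itself. Both steatotic CC libraries, at 349.7 and 372 CPM, stood above both steatotic Veh libraries, at 262 and 269 CPM, while both normal CC libraries, at 260.4 and 256 CPM, stood below both normal Veh libraries, at 290.4 and 274 CPM. The fall with the label normal did not pass the test (adjusted p = 0.264).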

How the results depend on the processing

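Under alternatives other than leaving out a library, 509 values (1 gene in 1 comparison under 1 alternative) kept their direction and side of the threshold, 10 calls were lost and 2 were gained, both of *Csf1* with the replicate block. Under the same alternatives no count of genes called moved by more than 1. Lost calls outside the leave-one-out fits were *Hbegf* by label with Veh (4 libraries alone, adjusted p = 0.14, and DESeq2, adjusted p = 0.0529, within a range of 0.0271 to 0.194 over all 20 alternatives), *Ereg* by label with Veh (counts divided by 4, replicate block and no robust fit, range 0.00362 to 0.174 over 18 alternatives; it was not tested with 0.5 or 1 CPM required in 2 libraries), *Pdgfa* with CC under the label normal (library size only, no robust fit and 4 libraries alone, range 0.0297 to 0.214), *Vegfb* with CC under the label steatotic (4 libraries alone, range 0.017 to 0.103) and *Pdgfc* by label with CC (4 libraries alone, range 0.00739 to 0.096). The cause was not tested.

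The number of genes called lower ranged from 1 to 2 when 1 library was left out, both for CC with the label normal, where *Hgf* was lost, and for the labels with CC, where *Pdgfa* was lost. Directions turned in leave-one-out fits of genes that were not called: *Vegfb* with CC under the label normal ranged from −0.00889 to 0.0811, *Ereg* with CC under the label steatotic from −1.41 to 0.508, the difference of responses from −0.145 to 0.00835 for *Pdgfb* and from −0.283 to 0.164 for *Csf1*, and *Csf1* by label with CC from −0.0705 to 0.376. *Ereg* has no value for CC with the label normal without normal CC replicate 2, since all remaining counts were 0.

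The replicate numbers were shared by all groups, but the deviations of same-numbered libraries correlated from −0.0332 to 0.118, so the numbers were not taken as pairs. With the replicate block, CC called 4 genes higher and 2 lower with the label normal (against 5.41% and 4.76% of all tested genes) and 6 higher and 2 lower with the label steatotic (against 11.2% and 10.0%), where *Csf1* was added (log2 0.399, adjusted p = 0.0428, and 0.323, adjusted p = 0.0499, within ranges of 0.0428 to 0.618 and 0.0499 to 0.624). The labels with Veh then gave 3 higher and 3 lower (against 15.4% and 13.4%).

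Over all tested genes, the difference of responses called 297 higher and 193 lower, against 457 and 320 at an adjusted p under 0.1 and 307 lower with DESeq2. Leaving out 1 library gave as few as 186 higher and 101 lower for that difference, 562 higher (of 953) and 452 lower (of 842) for CC with the label normal, 1062 lower (of 1653) for CC with the label steatotic, and 1279 lower (of 1966) for the labels with CC. *Areg* was not tested, and *Ereg* had few counts that lay apart between replicates, at 40 and 12 in steatotic Veh.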
